A study of Homo sapiens with 2 samples.

Results

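The genes described here are 8 of the 57905 human gene lines in the count tables: the CDK inhibitor genes CDKN1A (ENSG00000124762), CDKN1B (ENSG00000111276), CDKN1C (ENSG00000129757), CDKN2C (ENSG00000123080) and CDKN2D (ENSG00000129355), and the D-type cyclin genes CCND1 (ENSG00000110092), CCND2 (ENSG00000118971) and CCND3 (ENSG00000112576). They were taken by symbol and followed through every treatment of the series. K562 cells, an established BCR-ABL1-positive chronic myeloid leukaemia line that lacks functional p53, were exposed on 2 plates for 6 h to 74 treatments, most of them inhibitors of transcription or of chromatin regulators, and set against DMSO, the vehicle. Their mRNA 3′ ends were sequenced by MAC-seq, in which each well carries its own barcode and each plate becomes 1 library. Each plate had 12 DMSO wells, 3 wells each of AZ5576, ActD (actinomycin D), JQ1 and A485, 2 wells each of IBET_762 and GSK503, and 1 well of each of the other 68 treatments. One of those 68, EtOH, is itself a vehicle. All groups were the same line, the labels give no dose for any compound, and the duplicates are technical, so the p-values below measure the spread between wells and not between independent cultures.

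The CDK inhibitor genes and the D-type cyclins act on the same step of the cell cycle. D-type cyclins bind and activate CDK4 and CDK6, which phosphorylate the retinoblastoma protein RB and release E2F transcription factors, so that a cell passes from G1 into S phase. The INK4 proteins, to which CDKN2C (p18) and CDKN2D (p19) belong, bind CDK4 and CDK6, while the CIP/KIP proteins CDKN1A (p21), CDKN1B (p27) and CDKN1C (p57) mainly inhibit CDK2 complexes. CDKN1A is best known as a target of p53 and is also known as a gene that HDAC inhibitors raise without p53. Histone deacetylases (HDACs) remove acetyl groups from histones, BET proteins read such groups, and CBP and p300 add them.

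The windows before the starts of CDKN1A, CDKN2D and CDKN1B are shown because CDKN1A and CDKN2D rose with the same HDAC inhibitors while CDKN1B was not called with them under TMM scaling. Each holds the 250 bases before the gene start in RefSeq on GRCh38.p14, written 5′ to 3′ on the gene's strand; the count tables were made on GRCh37, so no coordinates are given for the counts. Capitals mark GC boxes, the letters GGGCGG or, for the other strand, CCGCCC. CDKN1A lies at chr6:36678464-36678713 on the plus strand, CDKN2D at chr19:10568980-10569229 on the minus strand and CDKN1B at chr12:12717118-12717367 on the plus strand.
CDKN1A: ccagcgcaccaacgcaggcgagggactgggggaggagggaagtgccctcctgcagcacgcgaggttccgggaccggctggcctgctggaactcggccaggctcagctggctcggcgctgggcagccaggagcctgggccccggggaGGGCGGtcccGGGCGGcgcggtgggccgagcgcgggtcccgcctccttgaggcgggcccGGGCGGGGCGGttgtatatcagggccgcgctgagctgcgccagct
CDKN2D: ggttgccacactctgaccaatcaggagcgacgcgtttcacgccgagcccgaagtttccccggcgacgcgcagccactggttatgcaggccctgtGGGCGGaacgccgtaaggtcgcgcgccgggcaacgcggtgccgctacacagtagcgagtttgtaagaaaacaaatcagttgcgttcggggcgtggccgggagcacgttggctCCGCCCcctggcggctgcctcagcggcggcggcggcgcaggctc
CDKN1B: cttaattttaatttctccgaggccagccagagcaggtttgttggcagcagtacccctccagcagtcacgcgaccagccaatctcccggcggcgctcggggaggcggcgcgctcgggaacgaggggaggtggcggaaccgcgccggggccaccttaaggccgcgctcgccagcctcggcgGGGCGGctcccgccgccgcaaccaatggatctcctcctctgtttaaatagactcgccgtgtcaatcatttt
CDKN1A had 4 matches, which began 104, 94, 45 and 40 bases before the start, the last 2 sharing 1 base. CDKN2D had 2 matches, 156 and 44 bases before the start, and CDKN1B had 1 match, 71 bases before it. Of all 35116 windows in the same table, 42.6% held at least 1 GC box, 24.3% at least 2 and 7.63% at least 4. CDKN1B also had 2 matches to CCAAT on either strand and CDKN2D had 1, and 32.0% of all windows held at least 1. The table had windows for 5 of the 8 genes. Those of CDKN2C and CCND3, not shown, held 0 to 5 matches per window. Neither gene was called by edgeR with Panobinostat or Quisinostat against DMSO under TMM scaling. The matches describe letters only.

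Human counts per well ran from 173553 to 1906446 (median 761911.5), which limits what can be seen of rare mRNAs. The wells that would form the first plate column if wells are numbered along rows, which the files do not state, were shallower, with a median of 265248 human counts against 800352.5 in the others; they hold 4 of the 12 DMSO wells and 2 of the 3 wells each of A485 and JQ1 on each plate. First-column DMSO wells differed from the other DMSO wells at an edgeR adjusted p under 0.05 in 24.0% of genes, and among the members in CCND3 (193 against 221 CPM, log2 difference -0.21, SE 0.08, edgeR adjusted p = 0.0296). All 12 markers of K562 that were looked up were measured above the filter, among them HBG2 at 16500 CPM and GATA1 at 250 CPM in DMSO wells. Of the markers of other cells, CD3E had 7 counts in all wells, MS4A1 1, MPO 6, and ELANE and COL3A1 none, whereas EPCAM (66.3 CPM), KRT8 (131 CPM), KRT19 (87.6 CPM) and LYZ (8.0 CPM) were present in DMSO wells. Levels below are counts per 1000000 human counts after TMM scaling (CPM). Scaling to the ERCC spike-in RNAs instead moved the median of all genes by -0.73 in AZ5576, -0.92 in ActD, -0.88 in DRB, -0.75 in OTS964, -0.76 in A159, -0.82 in THZ531, -0.87 in THZ1, -0.82 in Triptolide, -0.32 in JQ1, -0.34 in Phendione and -0.13 in Panobinostat on the log2 scale, so TMM values in these treatments are relative to the other mRNAs. Fewer cells and less RNA per cell cannot be told apart.

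The expression filter of edgeR was passed by 7 of the 8 members, all but CCND1. CDKN1A, CDKN1B, CDKN1C and CDKN2D passed it through the 7 or 8 wells in which they exceeded 13.1 CPM, most of them treated wells in which they were high, whereas CDKN2C exceeded it in 171, CCND2 in 149 and CCND3 in all 192 wells. The 7 genes and 74 treatments made 518 pairs, of which 24 were called at an edgeR adjusted p under 0.05, 12 higher and 12 lower. That is 4.63% of the pairs, near the 4.97% of all gene and treatment pairs called (2.55% higher and 2.42% lower), and such a share is no result about the members as a group. The calls fell in 13 treatments, and the other 61 had none.

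**Figure D1:**
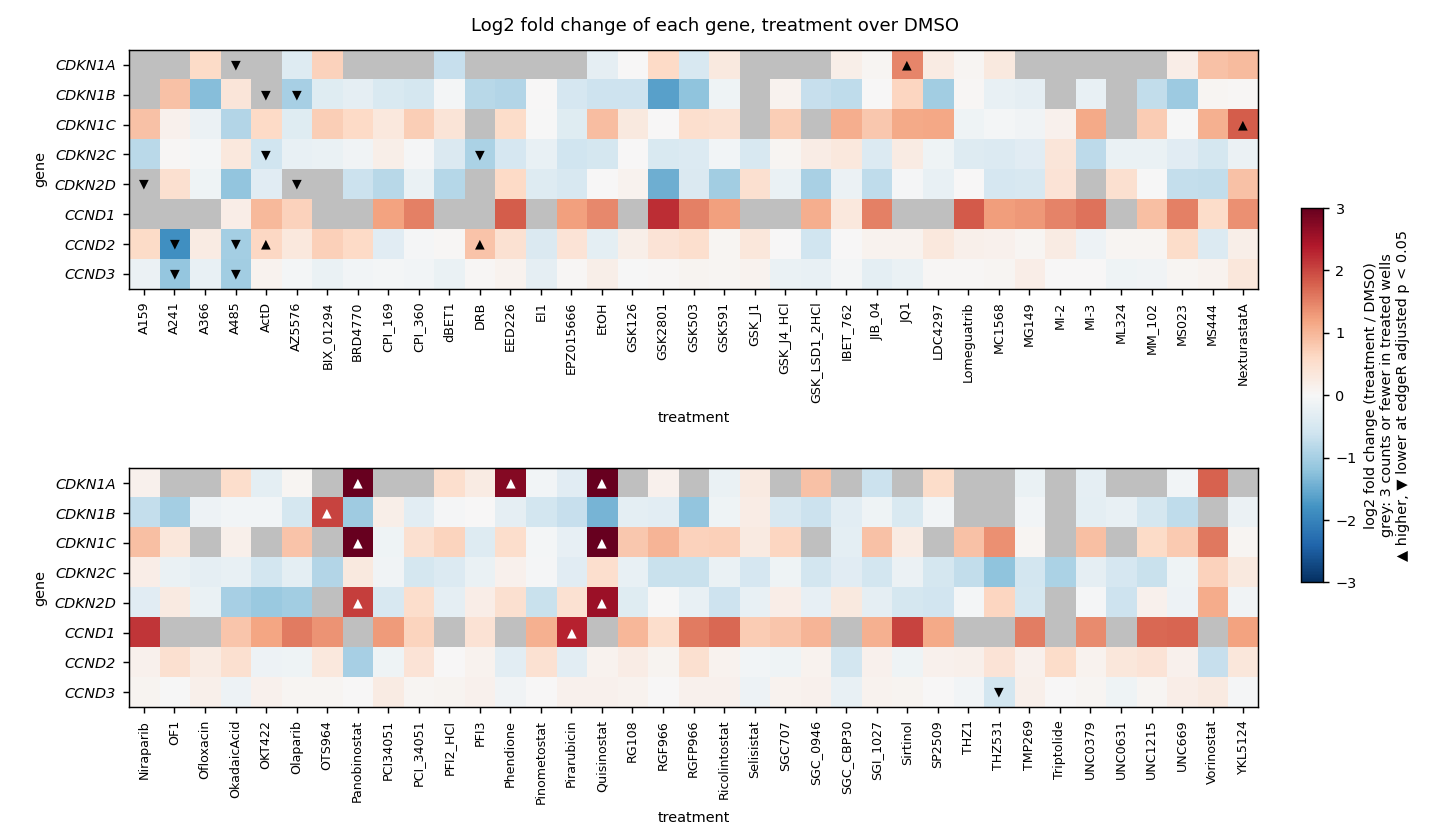
Log2 fold change of the 8 genes (rows) in 74 treatments (columns, alphabetical) relative to DMSO, red higher and blue lower; grey cells hold 3 counts or fewer over the treated wells and triangles mark edgeR adjusted p under 0.05, for CCND1 from the fit without a filter. Panobinostat and Quisinostat carried calls in CDKN1A, CDKN1C and CDKN2D, and A485 and A241 in CCND2 and CCND3.

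CDKN1A, a CIP/KIP gene, had its highest levels with 2 broad-acting HDAC inhibitors. It reached 27.7 CPM on plate 1 and 28.9 CPM on plate 2 with Panobinostat, and 23.0 and 29.4 CPM with Quisinostat, against 0 to 8.85 CPM (median 2.72) in the 24 DMSO wells. All 4 treated wells lay above every DMSO well. The log2 fold change was 3.20 (SE 0.35, edgeR adjusted p = 6.35e-13) with Panobinostat and 3.09 (SE 0.34, edgeR adjusted p = 1.44e-13) with Quisinostat. In these comparisons 3 members were called higher with each compound, where 10.3% of all genes were with Panobinostat and 10.8% with Quisinostat. These members, CDKN1A, CDKN1C and CDKN2D, passed the filter through few wells, the Panobinostat and Quisinostat wells among them. The count is therefore no result about the members as a group.

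Phendione also raised CDKN1A, the only member called with it. The wells held 15.3 and 26.5 CPM, above every DMSO well (log2 fold change 2.76, SE 0.37, edgeR adjusted p = 4.09e-09), in a comparison in which 4.73% of genes were called higher. CDKN1C (4.72 and 5.05 CPM) and CDKN2D (8.25 and 10.1 CPM) in the same Phendione wells lay within the range of the DMSO wells. JQ1, a BET inhibitor, gave CDKN1A 3.90 to 18.7 CPM in its 6 wells (median 7.97), and 4 of them exceeded every DMSO well of their plate (log2 fold change 1.47, SE 0.40, edgeR adjusted p = 0.00754; 7.0% of genes called higher). This call was lost when all first-column wells were left out (edgeR adjusted p = 0.138), without plate 2 (1.06, edgeR adjusted p = 0.418) and against EtOH (edgeR adjusted p = 0.115). Its BET-directed relatives IBET_762, with 1.42 to 5.51 CPM in 4 wells, and dBET1, with 0.937 and 2.51 CPM, stayed within the DMSO range.

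The CBP/p300 inhibitor A485 had no CDKN1A count in any of its 6 wells, as had 3 of the 24 DMSO wells. Set against a floor of 3 counts over the 6 wells (1.03 CPM), this was at least 2.91-fold lower than the DMSO mean of 3.01 ± 2.04 CPM (SD, n = 24; edgeR adjusted p = 0.0111), in a comparison with 2.49% of genes called lower. The groups thus overlap. The call was lost when all first-column wells, 4 of the 6 A485 wells among them, were left out (edgeR adjusted p = 0.164), against EtOH (0.11) and with either plate alone (0.444 and 0.224). A241, A159, MM_102 and GSK_J4_HCl also had no CDKN1A count, in 2 wells each, without a call under TMM scaling (edgeR adjusted p = 0.181, 0.101, 0.292 and 0.345). Under ERCC scaling CDKN1A was called lower with A159 (edgeR adjusted p = 0.014) and with ActD (edgeR adjusted p = 0.00109). That scaling moved the median of all genes by -0.76 and -0.92 in these treatments.

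CDKN1C, whose protein p57 is a CIP/KIP inhibitor like p21, was called higher by edgeR under TMM scaling with 3 HDAC inhibitors. By other tests its higher calls were not limited to HDAC inhibitors. JQ1 was called higher by DESeq2 (DESeq2 adjusted p = 0.0355) and limma-voom (limma adjusted p = 0.0221). IBET_762 and THZ531 were called higher by limma-voom (limma adjusted p = 0.0358 and 0.0465). The edgeR adjusted p was 0.0732 with JQ1, 0.123 with IBET_762 and 0.24 with THZ531. JQ1 wells held 0 to 22.4 CPM. CDKN1C wells held 36.2 and 35.9 CPM with Quisinostat and 26.5 and 30.5 CPM with Panobinostat, against 0 to 8.85 CPM (median 2.38) in DMSO wells, with no overlap. The log2 fold change was 3.36 (SE 0.33, edgeR adjusted p = 9.53e-17) with Quisinostat and 3.02 (SE 0.37, edgeR adjusted p = 6.30e-11) with Panobinostat. DMSO stood low for CDKN1C, with 55 of 74 treatments above it and a median log2 fold change of 0.41, and against EtOH, at 6.92 and 6.15 CPM, Quisinostat gave 2.44 (SE 0.56) and Panobinostat a value lower than that, both still called (edgeR adjusted p = 5.74e-05 and 0.00238). NexturastatA, an inhibitor directed at HDAC6, gave 9.29 and 15.8 CPM, both above every DMSO well (log2 fold change 1.82, SE 0.44, edgeR adjusted p = 0.0187), where 1.13% of genes were called higher. CDKN1C was the only member that edgeR called with NexturastatA. The NexturastatA call did not hold with only its own and DMSO wells in the fit (edgeR adjusted p = 0.0926), against EtOH (0.807) or with either plate alone (0.678 and 0.618).

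Vorinostat, another broad-acting HDAC inhibitor, gave values between these extremes without an edgeR call in any of the 3 genes. CDKN1A was 7.83 and 13.0 CPM (log2 fold change 1.78, SE 0.60, edgeR adjusted p = 0.111), CDKN1C 5.22 and 15.6 CPM (1.58, SE 0.63, edgeR adjusted p = 0.21) and CDKN2D 15.7 and 13.0 CPM (1.11, SE 0.50, edgeR adjusted p = 0.267). By limma-voom, CDKN1A and CDKN1C were called higher with Vorinostat (limma adjusted p = 0.0218 and 0.0498). Its lower well overlapped the DMSO range for CDKN1A and CDKN1C, and both its wells did for CDKN2D. The other compounds known as HDAC inhibitors were Ricolintostat (HDAC6), RGFP966 (HDAC3), PCI_34051 and PCI34051 (HDAC8), and TMP269 and MC1568 (class IIa). They carried no call in any of the 7 tested members under TMM scaling. Under ERCC scaling Ricolintostat was called higher in CDKN1C (1.29), CCND2 (0.69) and CCND3 (0.75). That scaling moved the median of all genes by 0.59 in Ricolintostat, and the TMM values were 0.71, 0.1 and 0.14. Since doses are not given, the compounds are set side by side and not ranked.

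**Figure D2:**
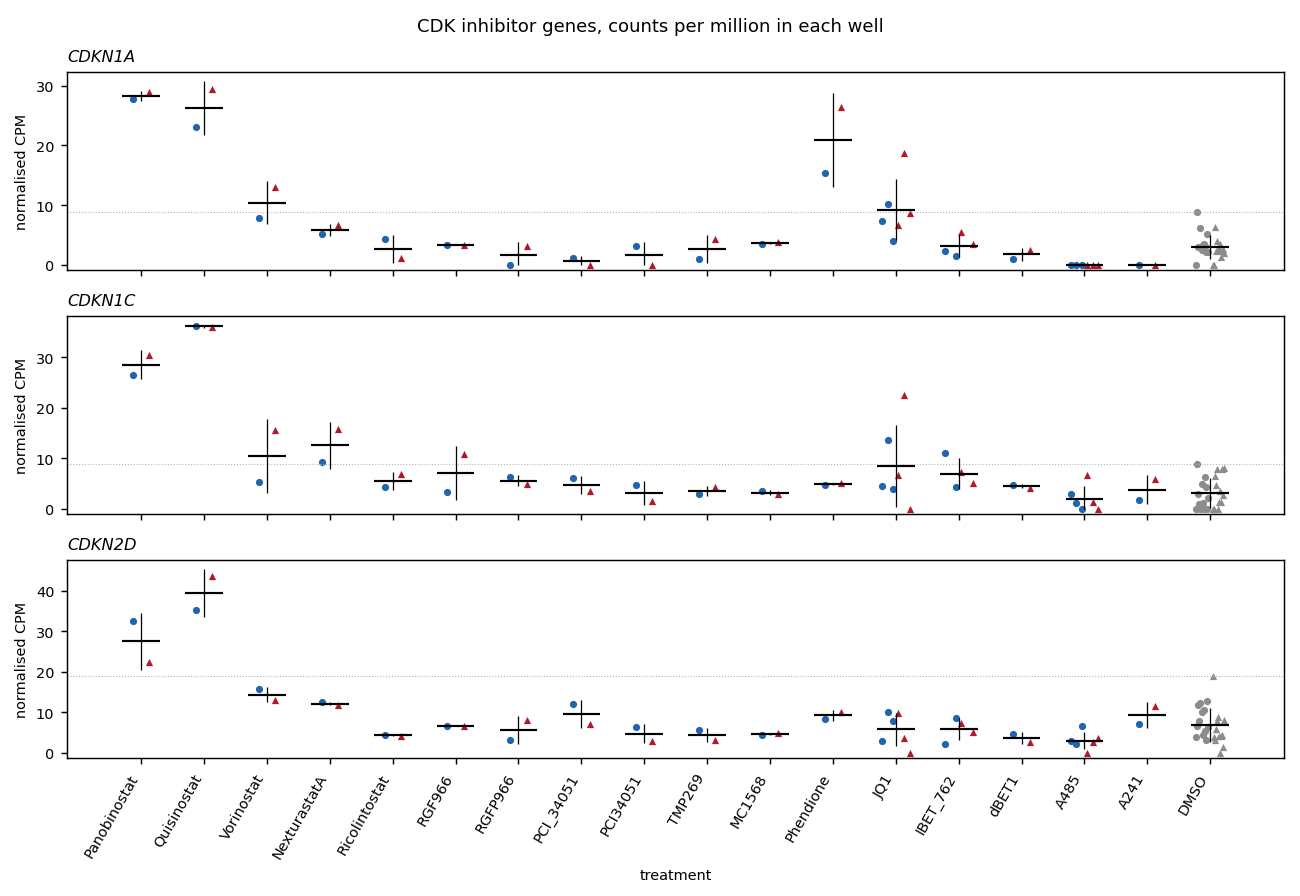
Normalised CPM of CDKN1A, CDKN1C and CDKN2D in each well (circles, plate 1; triangles, plate 2; grey, DMSO), with the mean as a bar and 1 SD as a line; the dotted line is the highest DMSO well. All Panobinostat and Quisinostat wells stood above it in the 3 genes, Phendione in CDKN1A alone.

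CDKN1B was not called with any HDAC inhibitor under TMM scaling; with library size alone it was called lower with Quisinostat (-1.45, edgeR adjusted p = 0.0456). Its wells held 2.41 and 4.81 CPM with Panobinostat and 2.19 and 3.26 CPM with Quisinostat, against 3.23 to 15.4 CPM (median 7.67) in DMSO wells, and neither was called (log2 fold change -1.07, SE 0.67, edgeR adjusted p = 0.209, and -1.39, SE 0.67, edgeR adjusted p = 0.0613). It rose with OTS964, an inhibitor of the kinases TOPK and CDK11, and was the only member called with it under TMM scaling. The OTS964 wells held 18.8 and 42.2 CPM, above every DMSO well (log2 fold change 2.03, SE 0.32, edgeR adjusted p = 2.00e-06), in a comparison with 8.46% of genes called higher. Without plate 2 the value was 1.28 (edgeR adjusted p = 0.196), and under ERCC scaling it was 1.27 (SE 0.34).

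CDKN1B fell with ActD, which blocks transcription by binding DNA. Its 6 wells held 2 counts in all, at 2.02 CPM in 1 well of plate 1 and 2.23 CPM in 1 well of plate 2, against 117 counts in the DMSO wells, and each ActD well lay below every DMSO well of its plate (edgeR adjusted p = 6.25e-06). The ratio of treated to DMSO level was 0.0921 (exact 95% interval 0.0110 to 0.340, counting error only, with reads taken as independent). The background was high, as 24.7% of genes were called lower with ActD. AZ5576, a CDK9 inhibitor, gave 0 to 9.91 CPM (median 3.29), overlapping the DMSO wells (log2 fold change -0.99, SE 0.48, edgeR adjusted p = 0.0422; 28.1% of genes called lower), and 1 of its 6 wells exceeded the DMSO mean of its plate. The AZ5576 call was lost in 5 of 14 alternatives, with -0.37 against EtOH (edgeR adjusted p = 0.727). DMSO stood high for this gene: 64 of 74 treatments had a lower mean CDKN1B level, the median log2 fold change was -0.45, and EtOH held 6.15 and 3.46 CPM.

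Of the INK4 genes, CDKN2D rose with the same 2 broad-acting HDAC inhibitors as CDKN1A and CDKN1C. Its wells held 35.1 and 43.5 CPM with Quisinostat and 32.5 and 22.4 CPM with Panobinostat, against 0 to 18.9 CPM (median 6.05) in DMSO wells, with no overlap. The log2 fold change was 2.56 (SE 0.27, edgeR adjusted p = 1.16e-14) with Quisinostat and 2.08 (SE 0.31, edgeR adjusted p = 1.20e-07) with Panobinostat. NexturastatA held 12.4 and 11.8 CPM, inside the DMSO range (log2 fold change 0.88, SE 0.38, edgeR adjusted p = 0.323).

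CDKN2D fell with AZ5576 and A159. The 6 AZ5576 wells held 3 counts in all, between 0 and 3.31 CPM, against 103 counts in DMSO wells, a ratio of 0.167 (exact 95% interval 0.0339 to 0.502; edgeR adjusted p = 0.000547). Only 2 of the 6 wells lay below every DMSO well of their plate. With A159 both wells were at 0 counts, at least 2.20-fold below the DMSO mean of 6.88 ± 4.26 CPM (SD, n = 24) for a floor of 3 counts over the group, or 3.13 CPM (edgeR adjusted p = 0.00979; 11.7% of genes called lower). The A159 call was lost with either plate alone. ActD gave 0 to 14.1 CPM for CDKN2D across its 6 wells (log2 fold change -0.34, SE 0.42, edgeR adjusted p = 0.508). Under ERCC scaling it was called lower with ActD (-1.25, SE 0.43, edgeR adjusted p = 0.00159). With DRB there was 1 CDKN2D count, without a call under TMM scaling (edgeR adjusted p = 0.0513). That pair was called lower with library size alone (0.022) and under ERCC scaling (0.0011). OTS964 and Triptolide were also called lower for CDKN2D under ERCC scaling (edgeR adjusted p = 0.00954 and 0.0112).

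CDKN2C was called lower with ActD and DRB. The ActD call held in 12 of 14 alternatives, with -0.76 for library size alone and -1.53 under ERCC scaling, and the DRB call held in 6. The CDKN2C level was 5.57 to 24.6 CPM (median 15.9) in the 6 ActD wells, against 9.45 to 48.9 CPM (median 21.2) in DMSO wells. The groups overlapped (log2 fold change -0.60, SE 0.22, edgeR adjusted p = 0.0142). With DRB, a CDK9-directed nucleoside analogue, it was 9.09 and 16.3 CPM, overlapping too (log2 fold change -0.96, SE 0.42, edgeR adjusted p = 0.0418; 15.7% of genes called lower). Against EtOH the values were -0.09 (edgeR adjusted p = 0.887) with ActD and -0.44 (edgeR adjusted p = 0.572) with DRB, the DRB call was lost in 8 of 14 alternatives, the ActD call also without plate 1 (-0.11, edgeR adjusted p = 0.817), and 2 of the 6 ActD wells exceeded the DMSO mean of their plate. As with CDKN1B, DMSO stood high, with 58 of 74 treatments below it and a median log2 fold change of -0.27. The low means with THZ531 (10.5 CPM), Triptolide (12.2 CPM), OTS964 (13.0 CPM) and A159 (13.4 CPM) were not called under TMM scaling, but all 4 were called lower with library size alone (edgeR adjusted p = 0.0214, 0.0478, 0.022 and 0.0192) and under ERCC scaling. The HDAC inhibitors gave CDKN2C 34.9 and 22.4 CPM (Panobinostat), 32.9 and 34.8 CPM (Quisinostat) and 44.4 and 33.8 CPM (Vorinostat), all inside the DMSO range and without an edgeR call against DMSO. Quisinostat was called higher against EtOH (1.01, edgeR adjusted p = 0.0212) and by limma-voom (0.53, limma adjusted p = 0.0469). Of the INK4 genes that are no members, CDKN2A, which is deleted in K562, had 0 counts in all 192 wells and CDKN2B had 3.

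**Figure D3:**
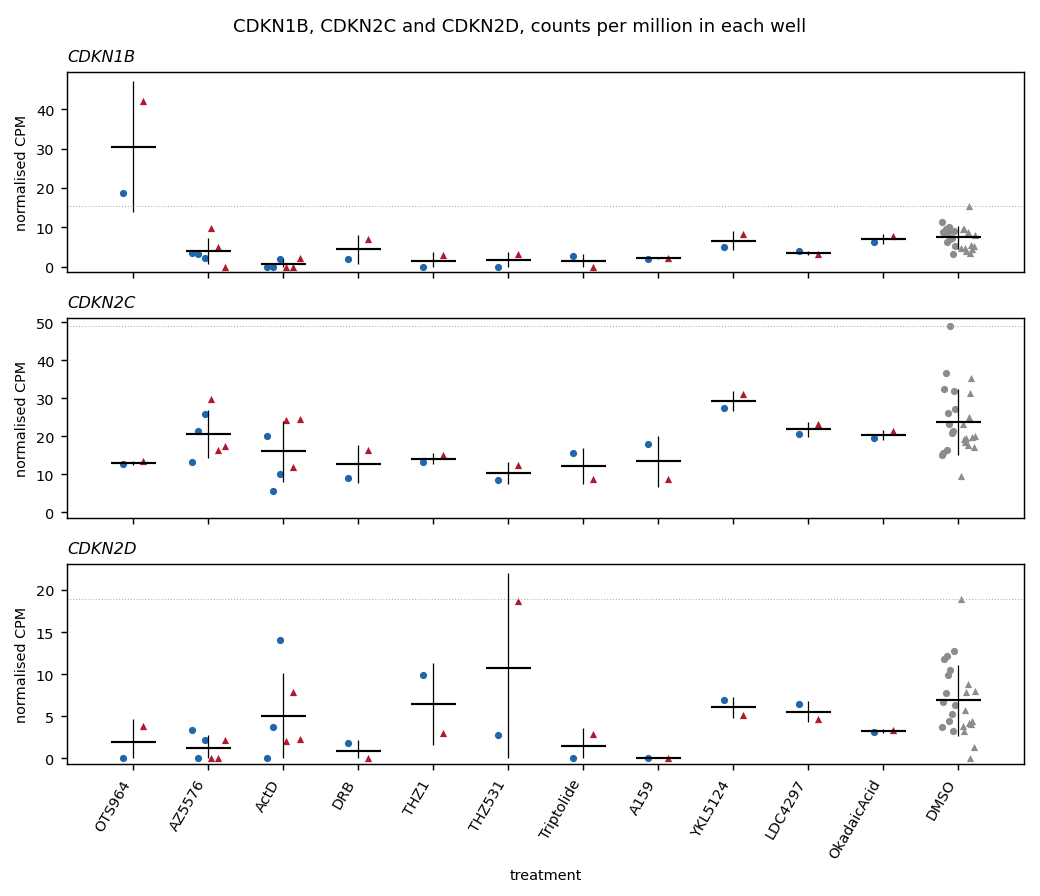
Normalised CPM of CDKN1B, CDKN2C and CDKN2D in each well of 11 treatments and DMSO (circles, plate 1; triangles, plate 2; grey, DMSO), with the mean as a bar and 1 SD as a line; the dotted line is the highest DMSO well. OTS964 wells stood above it for CDKN1B, and ActD wells were at or near 0.

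CCND3, the D-type cyclin with the most counts (30346 over all wells), was called by edgeR under TMM scaling in 3 treatments, each time lower. With library size alone it was called lower in 6 treatments and under ERCC scaling in 11. Of all pairs, 3.54% and 7.77% were called lower under these scalings, against 2.42% with TMM. With A485 it was 95.9, 122 and 98.2 CPM on plate 1 and 76.2, 99.9 and 113 CPM on plate 2, against 159 to 254 CPM (median 210) in DMSO wells. With A241 it was 99.1 and 92.7 CPM. No well of either treatment overlapped the DMSO wells. The log2 fold change was -1.05 (SE 0.09, edgeR adjusted p = 5.05e-20) with A485 and -1.16 (SE 0.15, edgeR adjusted p = 5.14e-11) with A241, in a comparison in which 3.22% of genes were called lower. Leaving out all first-column wells gave -0.99 (edgeR adjusted p = 8.85e-12) with A485, and both calls held in all 14 alternatives.

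The CDK12 and CDK13 inhibitor THZ531 gave CCND3 140 and 156 CPM, both below every DMSO well (log2 fold change -0.54, SE 0.15, edgeR adjusted p = 0.006; 7.96% of genes called lower). CCND3 was the only member called with THZ531 by edgeR under TMM scaling, and the call was lost with either plate alone. Under ERCC scaling CDKN1B (edgeR adjusted p = 0.00586) and CDKN2C (-2.01, edgeR adjusted p = 0.000139) were called lower with THZ531 too. SGC_CBP30, a ligand of the CBP and p300 bromodomains, gave 167 and 204 CPM, within the DMSO range (log2 fold change -0.22, SE 0.10, edgeR adjusted p = 0.341). JQ1 gave 152 to 206 CPM in 6 wells (log2 fold change -0.20, SE 0.08, edgeR adjusted p = 0.0697), and was called lower against EtOH, without first-column DMSO wells, with library size alone and under ERCC scaling (-0.53). Under AZ5576 and ActD, which changed 47.3% and 43.2% of all genes, CCND3 averaged 206 and 231 CPM against 211 ± 25.1 CPM (SD, n = 24) in DMSO wells, with log2 fold changes of -0.05 (SE 0.08) and 0.11 (SE 0.07). Scaled to ERCC RNAs these became -0.78 (SE 0.12) and -0.80 (SE 0.12), both called lower, beside the shifts of all genes given above. The highest mean was that of NexturastatA, at 234 and 309 CPM (log2 fold change 0.33, SE 0.10, edgeR adjusted p = 0.0564), and it was called by DESeq2 and limma-voom.

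**Figure D4:**
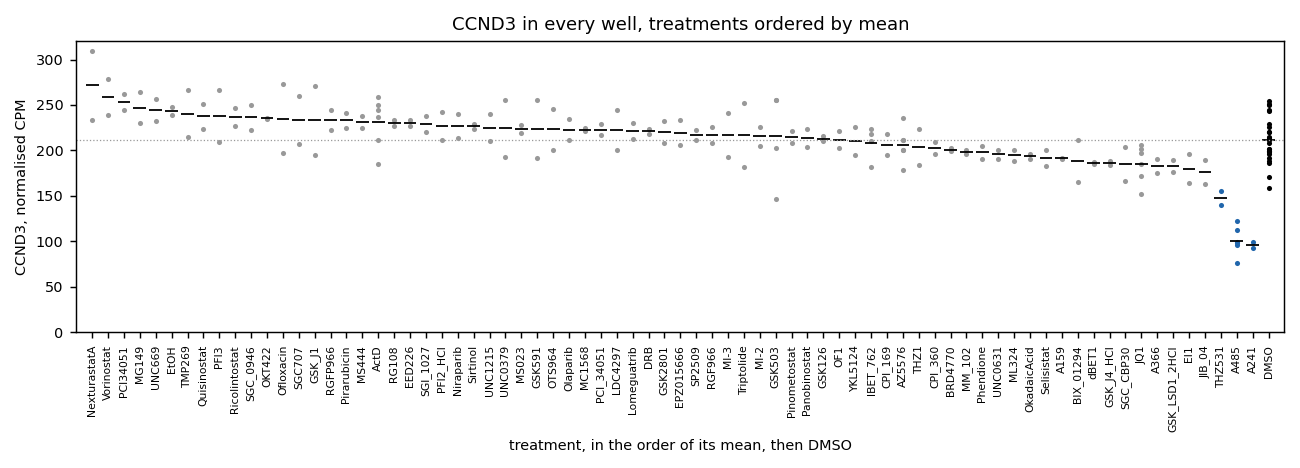
CCND3 in normalised CPM in every well, treatments in the order of their mean (bars) and DMSO last (black); the dotted line is the DMSO mean and blue marks edgeR adjusted p under 0.05. THZ531, A485 and A241 stood apart at the low end, and no neighbours among the 71 others were farther apart than the pooled SD of 22.0 CPM.

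CCND2 fell with the same 2 compounds and was higher with 2 blockers of transcription. With A485 its wells held 5.81 to 10.5 CPM (median 8.35) and with A241 3.48 and 5.79 CPM, against 3.49 to 27.8 CPM (median 16.8) in DMSO wells. The A241 wells lay below every DMSO well of their plate, and the A485 wells overlapped. The log2 fold change was -1.01 (SE 0.33, edgeR adjusted p = 0.0272) with A485 and -1.84 (SE 0.70, edgeR adjusted p = 0.0271) with A241. Neither was called by DESeq2, by limma-voom, against EtOH or with either plate alone, and A485 was not called without first-column wells (edgeR adjusted p = 0.134). First-column DMSO wells averaged 12.3 CPM of CCND2 and the other DMSO wells 17.7 CPM (log2 difference -0.54, SE 0.29, edgeR adjusted p = 0.141).

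With DRB, CCND2 was 29.1 and 32.6 CPM, above every DMSO well, and with ActD 15.8 to 51.4 CPM (median 22.2) in 6 wells, which overlapped the DMSO wells. The log2 fold change relative to other mRNAs was 0.86 (SE 0.31, edgeR adjusted p = 0.034) with DRB, among 12.8% of genes called higher, and 0.62 (SE 0.21, edgeR adjusted p = 0.0119) with ActD, among 18.6%; under ERCC scaling both directions turned, to -0.02 and -0.30. The ActD call was also lost with either plate alone (edgeR adjusted p = 0.0557 and 0.264), and the DRB call in 8 further alternatives. One ActD well at 51.4 CPM stood far above the next, at 27.8 CPM. AZ5576 gave 15.2 to 24.6 CPM (log2 fold change 0.32, SE 0.23, edgeR adjusted p = 0.253) and Panobinostat 6.02 and 11.2 CPM (log2 fold change -1.0, SE 0.46, edgeR adjusted p = 0.0719; 0.0499 with library size alone).

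CCND1 was barely detected, with 431 counts in all and none in 41 of the 192 wells, and 11 of 24 DMSO wells were at 0. An opposite-strand gene that overlaps it in GENCODE 29, LTO1, had 1801 counts, and whether counting used the strand is not given, so reads of the pair may not be separated. In a fit without a filter over 33614 genes, 1 treatment was called: Pirarubicin, an anthracycline, at 9.46 and 6.04 CPM against 0 to 10.4 CPM (median 1.10) in DMSO wells (14 counts, log2 fold change 2.32, SE 0.54, edgeR adjusted p = 0.023), where 0.134% of genes were called higher. Both wells lay below the highest DMSO well. DMSO stood low for CCND1, with 59 of 74 treatments above it, and EtOH held 6.15 and 2.31 CPM.

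**Figure D5:**
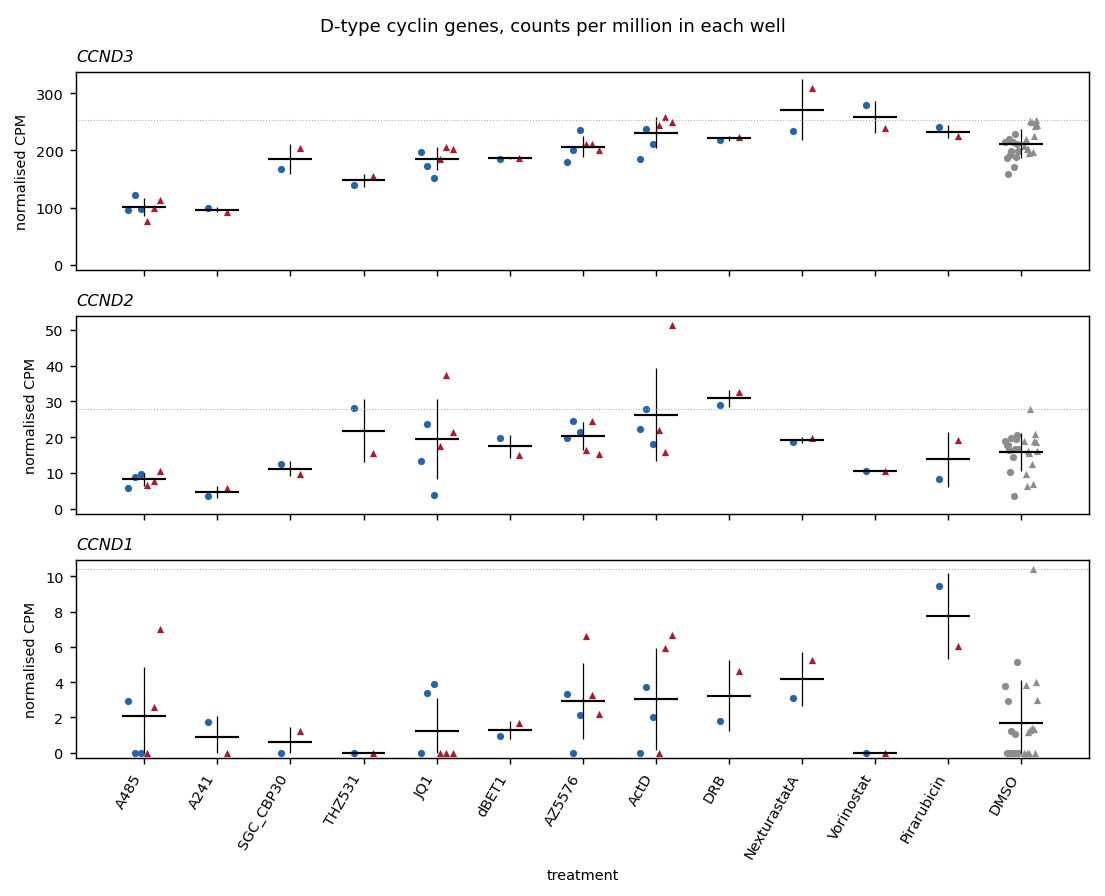
Normalised CPM of CCND3, CCND2 and CCND1 in each well of 12 treatments and DMSO (circles, plate 1; triangles, plate 2; grey, DMSO), with the mean as a bar and 1 SD as a line; the dotted line is the highest DMSO well. A485 and A241 wells of CCND3 lay below all DMSO wells, and the A485 wells of CCND2 overlapped them.

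The other compounds looked up for every member, the CDK7 inhibitors THZ1, YKL5124 and LDC4297, Triptolide, which acts on TFIIH, and OkadaicAcid, a phosphatase inhibitor, carried no call in any tested member under TMM scaling. CDKN1B held 1 count over both wells with THZ1 and 1 with Triptolide, in each case without a call. Under ERCC scaling THZ1 was called lower in CDKN1B, CDKN2C (-1.62) and CCND3 (-0.94), and Triptolide in CDKN1B, CDKN2D, CDKN2C (-1.76) and CCND3 (-0.79), beside all-gene shifts of -0.87 and -0.82. CCND3 ran from 182 to 252 CPM in the Triptolide wells and from 191 to 196 CPM in the OkadaicAcid wells, inside the range of the DMSO wells. CDKN1C held 7.68 and 7.73 CPM with LDC4297, near the upper end of the DMSO wells (log2 fold change 1.17, SE 0.56, edgeR adjusted p = 0.388).

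Placed in the order of their means over the 75 conditions, few neighbours were farther apart than the spread between wells of 1 condition. For CDKN1A that pooled SD was 2.31 CPM, and 3 of 74 neighbouring pairs were farther apart: Quisinostat (26.2 CPM) over Phendione (20.9 CPM), Phendione over Vorinostat (10.4 CPM) and JQ1 (9.21 CPM) over NexturastatA (5.86 CPM). For CDKN1B (SD 3.30 CPM) the only such pair was OTS964 (30.5 CPM) over A241 (13.6 CPM). For CDKN1C (SD 3.26 CPM) and CDKN2D (SD 3.39 CPM) Quisinostat, then Panobinostat, stood apart from what followed. For CCND3 (SD 22.0 CPM) such pairs numbered 2, at the low end: JIB_04 (176 CPM) over THZ531 (148 CPM), and THZ531 over A485 (101 CPM). For CDKN2C, CCND1 and CCND2 no pair of neighbours was farther apart than the pooled SD. DMSO ranked 29 for CDKN1A, 11 for CDKN1B, 56 for CDKN1C, 17 for CDKN2C, 20 for CDKN2D, 60 for CCND1, 56 for CCND2 and 49 for CCND3, counted from the highest mean.

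Other genes of the pathway were counted in 3 lists, at an edgeR adjusted p under 0.05, with values as log2 fold changes. Of 20 genes for kinases, other cyclins, RB proteins and E2F factors, 15 were tested. Of all genes, 20.2% were called in either direction with Quisinostat, 18.5% with Panobinostat, 4.54% with Vorinostat and 17.1% with OTS964. With AZ5576 47.3% were called, 28.1% of all genes lower, and with ActD 43.2%. With A241 5.03% were called and with A485 4.37%. Quisinostat lowered 2 of the 15, the S-phase cyclin CCNA2 (log2 fold change -0.88, SE 0.19) and E2F3 (-1.42, SE 0.56). Panobinostat and Vorinostat lowered CCNA2 alone (-0.65, SE 0.19, and -1.01, SE 0.29). OTS964 lowered E2F1 (-1.78, SE 0.66) and raised CDK4 (0.46, SE 0.12), but CDK4 was -0.28 under ERCC scaling. AZ5576 lowered 7 of the 15, among them E2F1 (-1.79, SE 0.41) and CCNE1 (-1.07, SE 0.33), while 2 were called higher, CDK4 (0.46) and TFDP2 (0.37), both negative under ERCC scaling (-0.28 and -0.36). The median over the 15 genes was -0.68 with AZ5576 and -0.10 with Quisinostat, against -0.14 and -0.01 over all genes. A241 raised CDK2 (0.92, SE 0.20), and A485 and A241 lowered TFDP2 (-0.50, SE 0.15, and -1.10, SE 0.27), a partner of E2F.

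Of 8 genes that regulate p27 or its turnover, 5 were tested. Quisinostat and Panobinostat lowered CUL1, the scaffold of the ligase that marks p27 for breakdown (-1.69, SE 0.38, and -1.15, SE 0.36), and raised SKP1 of the same ligase (0.42, SE 0.09, and 0.45, SE 0.09). Quisinostat also lowered RBX1, another subunit of it (-0.56, SE 0.13), so that 1 rose and 2 fell. With ActD, where 18.6% of all genes were called higher and 24.7% lower, 2 rose and 1 fell, CUL1 (-0.50, SE 0.21), and the 2 that rose, SKP1 (0.25) and RBX1 (0.25), were negative under ERCC scaling (-0.64 and -0.67). With OTS964 only RBX1 was called (0.38, SE 0.12), at -0.38 under ERCC scaling.

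Of 20 p53 target genes other than CDKN1A, 14 were tested. Quisinostat raised 4, SESN2 (1.92, SE 0.24), FDXR (0.77, SE 0.16), PLK3 (1.49, SE 0.33) and TNFRSF10B (1.30, SE 0.35), and lowered MDM2 (-1.16, SE 0.48). Panobinostat raised 3, SESN2 (1.63, SE 0.27), TNFRSF10B (1.41, SE 0.37) and BTG2 (1.85, SE 0.63), and lowered none. Phendione raised GADD45A (0.72, SE 0.16), JQ1 raised 3 and lowered 3, and A485 raised TP53I3 (1.24, SE 0.30) and lowered GADD45A (-1.20, SE 0.20). AZ5576 lowered 9 of the 14 and raised none, ActD lowered 7 and raised none. Of all genes, 28.1% were called lower with AZ5576 and 24.7% with ActD. Called higher were 10.8% with Quisinostat, 10.3% with Panobinostat and 4.73% with Phendione. In either direction 47.3% of all genes were called with AZ5576, 43.2% with ActD and 20.2% with Quisinostat. With JQ1 14.4% were called in either direction, and with A485 4.37%.

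The genes whose pattern over the 75 conditions was most like that of a member were sought among 3759 genes with a mean of at least 5 log2 CPM, by Pearson correlation of plate-centred means; all points share the same libraries and DMSO wells. For CDKN1A they were TUBB2A (r = 0.74), HSPA1A (0.72) and IDI1 (0.70), and without Quisinostat and Panobinostat these were 0.55, 0.62 and 0.47. For CDKN1C they were TUBB2A (0.68), CDK2AP2 (0.67) and SWI5 (0.67), at 0.41, 0.32 and 0.33 without those 2 compounds, and for CDKN2D POR (0.66), PMM1 (0.66) and SNAPC2 (0.64), at 0.41, 0.44 and 0.53. For CCND3 they were SYNGR2 (0.67), ZNF385A (0.67) and RHOC (0.65), each 0.67 without them. For CDKN1B, CDKN2C and CCND2 the likest genes were MAD2L1BP (0.57), DNAJB1 (0.62) and GYPC (0.56).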

How the data were processed

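The deposited values are read counts per gene and well, 1 table per plate, with a deposited annotation of compound and barcode. A summary line of reads per UMI is fractional, so the deposited tables are classed with the unit expected counts, made by the authors from reads assigned to genes, but every gene line was whole and needed no rounding. The tools named by the submitters' processing notes are cutadapt 2.1, FastQC 0.11.6, R 4.0.2 and bcl2fastq 2.17.1.14, with build GRCh37 (hg19); no source used here names the aligner or counter. Human counts were 83.9% to 88.9% of reads mapped to genes, with 1.63 to 3.53 reads per UMI, so they are reads and not molecules. Intervals and floors cover counting error only and take reads as independent. Where reads share a molecule, the intervals are too narrow. In all, 92 ERCC lines and 6 summary lines stayed out of library sizes; 51996 gene lines had a symbol.

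All 192 wells entered 1 edgeR 4.0.16 quasi-likelihood fit (R 4.3.3; filterByExpr, 10312 genes, TMM, treatment and plate terms, solver checked against edgeR and tested on simulated data), with Benjamini-Hochberg adjustment within a treatment over all genes. The plate term blocks the duplicates. Fold changes are shrunken with a prior count of 0.125, and are not given for 3 or fewer treated counts. DESeq2 1.42.0 and limma 3.58.1 (voom) were among 14 alternatives, of which leaving out all first-column wells was added after seeing the data. The genes, lists and named compounds were chosen with earlier results of these data known: treatments past the threshold with the same sign in every well, 19 treatments looked up for every member, and up to 4 list genes per treatment. AZ5576 for CDKN1B and ActD for CDKN2C, and uncalled pairs outside the 19, were named after their values were seen. What each compound inhibits is background knowledge, since the labels give names only.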

Additional observations from a re-analysis of the deposited data

Results flagged for a closer look

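In 47 groups of 4 to 10 wells, each 1 member in 1 treatment, the highest or lowest well was set against the others by Dixon's test, which by chance marks about 1 group in 20. It marked 3. CCND2 had 1 ActD well at 51.4 CPM, the next being 27.8 CPM and the median of the 6 wells 22.2 CPM. CDKN1C had 1 AZ5576 well at 9.91 CPM, with the next at 3.31 CPM and a median of 2.16 CPM over 6 wells. CCND1 had 1 GSK503 well at 0.0 CPM among 4 wells with a median of 4.73 CPM.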

How the results depend on the processing

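Of the 24 calls, 11 kept direction and threshold in every alternative that gave a value: CDKN1A with Panobinostat, Quisinostat and Phendione, CDKN1C and CDKN2D with Panobinostat and Quisinostat, CDKN2D with AZ5576, CDKN1B with ActD, and CCND3 with A485 and A241. DESeq2 gave no adjusted p for CDKN1A with Phendione, CDKN1B with OTS964 and CDKN2D with A159. Without the replicate block (no plate term) the counts were 12 higher and 12 lower, and no call was lost. The higher calls numbered 19 by limma-voom, and 7 to 9 with 1 replicate (plate) left out. The lower calls numbered 24 with library size alone, 37 with ERCC scaling, 7 by the DESeq2 test, 7 with EtOH as reference, and 4 to 5 with 1 plate left out; the cause was not tested. Of all gene and treatment pairs, 2.42% were called lower with TMM, 3.54% with library size alone and 7.77% under ERCC scaling. The share was 2.26% by DESeq2 and 1.39% against EtOH. By limma-voom 3.06% of all pairs were called higher, against 2.55% with TMM. With 1 plate left out fewer pairs were called over all genes as well. The counts of members thus moved in the same direction as those of all genes. With ERCC scaling CCND2 reversed with ActD (-0.3, edgeR adjusted p = 0.187) and DRB (-0.02, edgeR adjusted p = 0.955). EtOH, with 2 wells, cost 8 of the 24 calls, and leaving out all first-column wells cost 4. With 1 plate left out, treatments with 1 well are assumed to vary like the others. At 10 or fewer CPM a typical well holds few counts, so small changes of CDKN1A, CDKN1B, CDKN1C, CDKN2D and CCND1 were not detectable.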
